A study of Mus musculus with 10 samples.

Results

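The replication-dependent histone genes of the mouse lie mainly in the Hist1 cluster on chromosome 13 and the smaller Hist2 cluster on chromosome 3. DNA methylation over both clusters was described in the brains of mice fed diets of different n-3 to n-6 fatty acid ratio. The members were all probes of the array whose mm9 position lay in chr13:21780000-22150000 (Hist1 lower), chr13:23600000-23880000 (Hist1 upper) or chr3:96010000-96090000 (Hist2). These intervals held 151 of the 88411 positioned probes. Runs of at least 3 probes whose starts lay at most 500 bp apart were averaged as 1 region, which gave 27 of the 13835 regions of the array. Hist1 lower had 10 regions, Hist1 upper 13 and Hist2 4. The remaining 33 member probes stood in 22 smaller groups. The intervals themselves are positional, but these loci were selected on earlier results of the same arrays, in which a Hist2 region headed the comparison of the highest and the lowest n-3 diets and the trend over the diets. Values of those contrasts are therefore a description, and nothing is read from their tests.

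All 10 samples were left hemibrains of male C57BL/6j mice that were given 1 of 3 diets of equal caloric content from 3 weeks of age for 24 weeks. The n-3 enriched diet, ERD, had an n-3:n-6 ratio of 7:1 and was measured on 4 arrays. The balanced diet, BLD, had a ratio of 1:1, and STD, the standard diet, 1:6, with 3 arrays for each. All 10 sample titles, whichever the diet, end in the word CONTROL, and the titles do not say what it refers to. DNA pulled down by methylated DNA immunoprecipitation (MeDIP, Cy5) and input DNA (Cy3) of 1 sample shared an array that tiles CpG islands. A hemibrain mixes neurons, glia and vessel cells, so the values are averages over cell types. The labels give no cell count and do not say that samples are separate animals, so p-values measure the spread between samples, which may be technical. ERD arrays occupied 2 slides of their own, so ERD and slide cannot be told apart, while BLD replicate 3 and STD replicate 1 shared a slide.

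Replication-dependent histone genes encode the bulk of the linker histone H1 and the core histones H2A, H2B, H3 and H4 that package newly copied DNA. They are expressed mainly in S phase, lack introns, and give messenger RNAs that end in a stem-loop instead of a poly(A) tail. Many copies encode the same or nearly the same protein. H2A and H2B genes often face away from each other across a shared promoter. Most neurons of the adult brain no longer divide and rely largely on replication-independent variants such as H3.3. In MeDIP an antibody to 5-methylcytosine binds single-stranded DNA, so that the yield depends on both the methylation and the density of CpG sites.

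The RefSeq annotation of the mouse assembly GRCm38.p6 lists 54 protein-coding histone genes on chromosome 13 (6 for H1, 13 for H2A, 15 for H2B, 9 for H3 and 11 for H4) and 10 on chromosome 3 (4 for H2A, 2 for H2B, 3 for H3 and 1 for H4). Promoter sequences were matched for 51 and 8 of them. The array positions are in mm9 and no probe sequence was used here, so no probe was placed in a promoter or a gene. For a gene with more than 1 window, the window with the most CpG sites was used, in histone genes and all genes alike. The 250 bases upstream of the start held a median of 9 CpG sites in the Hist1 genes and 15 in the Hist2 genes. Over 27025 genes of the table the median was 6. The range was wide, from 2 sites upstream of H2bc3, an H2B gene of Hist1, to 34 upstream of H2ac18, an H2A gene of Hist2. The CCAAT box (CCAAT on either strand) was found upstream of 49 of 59 histone genes (83.1%) and 33.9% of all genes, including all 15 H2B and all 17 H2A genes but 3 of 11 H4 genes. The TATA box (TATAAA, either strand) was found in 47.5% and 12.5%. The octamer ATTTGCAT (either strand) was found in 20.3% and 1.58%, and within the histone families in 6 of 15 H2B and 6 of 17 H2A windows and in none of the H1, H3 or H4 windows. The windows of 10 divergent H2A and H2B pairs overlapped. These counts describe letters in the windows and not binding of a factor.

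The windows with the most CpG sites in each family are shown because CpG density bears on the MeDIP yield and most methylated cytosines of mammalian DNA stand in this context, with Hist2 taken first where it has an entry of that family. Capitals mark each CG. All run 5′ to 3′ on the strand of the gene and end at the base before the start, from RefSeq with build GRCm38.p6.
H2ac18 (H2A, Hist2, chr3:96245247-96245496, plus strand): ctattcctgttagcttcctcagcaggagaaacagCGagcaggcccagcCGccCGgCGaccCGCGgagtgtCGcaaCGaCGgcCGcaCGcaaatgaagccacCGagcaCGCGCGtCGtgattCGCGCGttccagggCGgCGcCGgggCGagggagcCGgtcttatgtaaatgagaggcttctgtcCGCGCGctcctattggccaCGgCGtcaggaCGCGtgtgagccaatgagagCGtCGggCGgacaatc
H2bc18 (H2B, Hist2, chr3:96269450-96269699, plus strand): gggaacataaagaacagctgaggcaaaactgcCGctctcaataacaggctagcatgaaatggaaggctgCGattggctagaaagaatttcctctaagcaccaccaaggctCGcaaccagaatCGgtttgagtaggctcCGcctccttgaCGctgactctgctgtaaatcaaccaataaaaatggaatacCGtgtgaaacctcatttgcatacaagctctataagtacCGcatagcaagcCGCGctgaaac
H3c14 (H3, Hist2, chr3:96246435-96246684, plus strand): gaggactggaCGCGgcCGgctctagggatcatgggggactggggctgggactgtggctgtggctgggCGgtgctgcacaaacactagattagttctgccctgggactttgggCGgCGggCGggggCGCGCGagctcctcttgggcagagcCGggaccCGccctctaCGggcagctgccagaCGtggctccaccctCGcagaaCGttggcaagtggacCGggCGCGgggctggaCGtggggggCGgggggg
H4c1 (H4, Hist1, chr13:23761250-23761499, minus strand): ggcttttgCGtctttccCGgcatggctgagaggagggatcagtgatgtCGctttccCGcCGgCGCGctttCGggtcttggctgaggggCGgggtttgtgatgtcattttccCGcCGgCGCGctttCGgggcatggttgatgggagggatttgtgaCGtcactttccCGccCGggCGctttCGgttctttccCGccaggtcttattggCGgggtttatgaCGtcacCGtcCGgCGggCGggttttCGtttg
H1f4 (H1, Hist1, chr13:23622559-23622808, minus strand): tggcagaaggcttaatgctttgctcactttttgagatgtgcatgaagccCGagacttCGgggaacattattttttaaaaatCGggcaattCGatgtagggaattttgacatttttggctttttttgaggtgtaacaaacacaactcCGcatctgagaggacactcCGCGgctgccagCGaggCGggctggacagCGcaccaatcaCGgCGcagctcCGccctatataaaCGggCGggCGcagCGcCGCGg
The H2bc18 window held 10 CpG sites, the H1f4 window 19, the H3c14 window 21 and the H4c1 window 27. The octamer stands near the 3′ end of the H2bc18 window as atttgcat. Some of the windows shared long identical runs. Of 1711 pairs of the 59 windows, 6 shared an identical run of at least 45 bases, which is the length of the shortest array probes. These 6 pairs held 12 of the 59 genes. The Hist2 pairs were H3c14 with H3c15, which shared 231 consecutive bases, and H2ac18 with H2ac19, which shared 169. In Hist1, H4c17 and H4c18 shared 249 bases, and H2bc23 and an H2B gene listed as H4bc24 shared all 250. A probe within such a run would report both copies together. How many member probes lie in one was not tested.

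The probes of the histone intervals were dim in both channels. They were chosen by position, and not all need lie in histone genes. Between the first and the last histone gene of chromosome 13, which takes in the stretch between the 2 Hist1 intervals, RefSeq lists 200 other genes among 255. Of these, 77 are for transfer RNAs and 75 have symbols of the vomeronasal receptor family (Vmn1r). Protein-coding genes make up 50 of the 200, so some of the Vmn1r entries are not protein-coding. On chromosome 3 it lists 1 other gene among 11. The median member probe stood at percentile 14.6 of all probes in the input channel and at percentile 16.3 in the MeDIP channel. The other probes of chromosome 13 had medians at percentiles 50.3 and 48.3, and those of chromosome 3 at 49.2 and 48.3. Over the 10 arrays, both channels were well above background in 53.4% of member spots and in 86.7% of all spots. The share was 53.6% in Hist1 lower, 53.9% in Hist1 upper and 52% in Hist2, so that the low signal was common to the 3 intervals. On single arrays it ran from 44.4% (ERD replicate 4 and STD replicate 2) to 62.9% (STD replicate 1). Of the 151 probes, 27 (17.9%) were well above background on all 10 arrays, compared with 58.5% of all probes, and 32 (21.2%) on none, compared with 2.4%. Averaged over the 10 arrays, no member probe exceeded percentile 90 of input, where 6.98% of all probes lay, although 8 member probes did so on at least 1 array. Input DNA is taken before the antibody step. Of the 27 regions, 14 had under 50% of their spots well above background and 5 had over 75%.

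**Figure D1:**
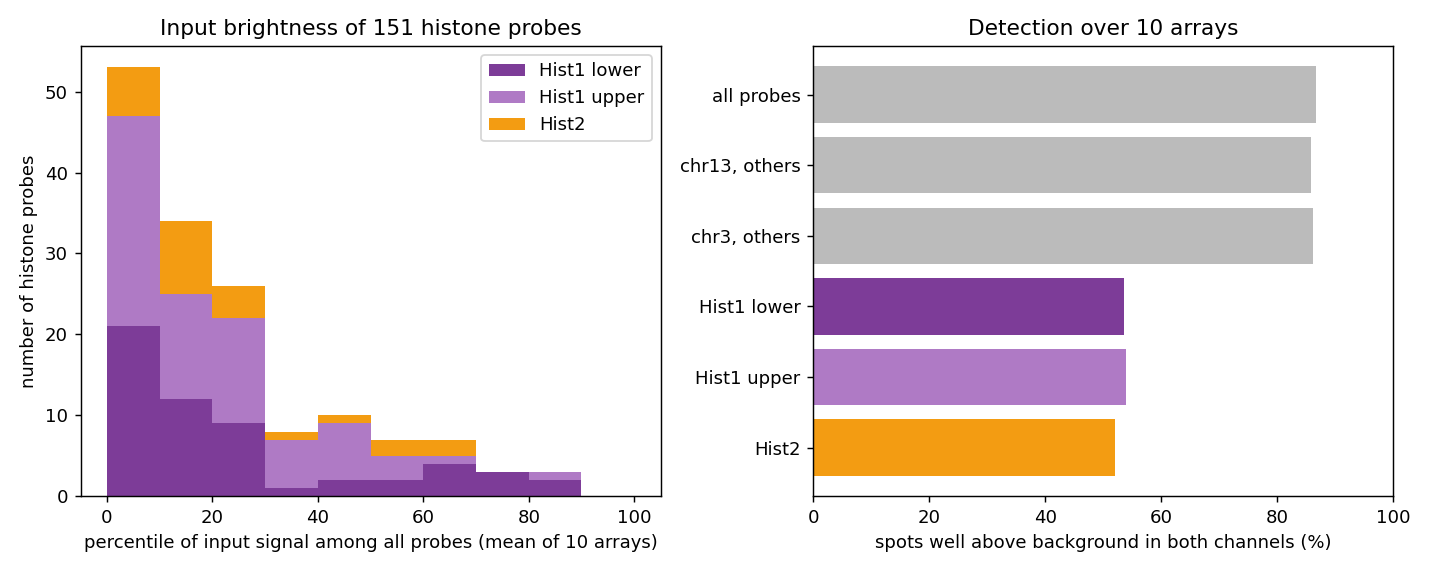
Left, the number of histone probes (stacked by interval) in each 10-percentile step of input signal among all probes, averaged over 10 arrays; right, the percent of spots well above background in both channels. Most of the 151 probes lie in the lowest steps, and the 3 intervals stand at 52% to 53.9% against 86.7% for all probes.

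The input signal of the member probes was more alike between arrays of 1 slide than between slides. The same was not computed over all probes. Across the 151 probes, the input percentiles of 2 arrays on the same slide correlated with a mean r of 0.94 (5 pairs), and those of arrays of the same diet on different slides with 0.81 (8 pairs). The log2 ratios correlated with a mean r of 0.50 on the same slide and 0.39 across slides within a diet. The Hist2 probe at chr3:96024331 was picked as an example. Its input stood at percentiles 53.5 to 70.8 on the 4 arrays of the slides that held STD samples and at 4.04 to 18.7 on the 6 others. It separated BLD replicate 3, at 58.7, from BLD replicates 1 and 2, at 8.12 and 7.28. The probe at chr13:21827311 split in the same way, at percentiles 84.9 to 95.7 on those 4 arrays and 8.94 to 45.4 on the 6 others. So did the probe at chr13:23666064, at 72.2 to 90.5 and 15.7 to 49.8. Not every member probe did so, and how many did was not counted. All STD arrays were among the 4, so slide and diet cannot be fully told apart for these probes.

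Enrichment, given below as log2(MeDIP/input) with the array median at 0, was near the array median over the clusters as a whole. The median region level was 0.00, against -0.04 over all regions, and region levels ran from -0.37 to 0.43. Of the 27 member regions, 1 exceeded the array median on each of the 10 arrays, as did 8.27% of all regions. In the other direction, 2 of 27 lay below the median on all arrays, against 16% of all regions. This region was chr13:23646715-23647514 in Hist1 upper (4 probes). Its level was 0.62, 0.54, 0.30 and 0.40 in ERD, 0.87, 0.83 and 0.24 in BLD, and 0.09, 0.37 and 0.09 in STD. All arrays were above 0, and the 3 diets overlapped. The low regions were chr13:21872340-21872645 in Hist1 lower (3 probes) and chr13:23714277-23714593 in Hist1 upper (3 probes). The former stood at -0.11, -0.76, -0.55 and -0.01 in ERD, -0.30, -0.05 and -0.37 in BLD, and -0.48, -0.63 and -0.33 in STD. The latter stood at -0.04, -0.30, -0.12 and -0.27 in ERD, -0.65, -0.03 and -0.07 in BLD, and -0.29, -0.47 and -0.40 in STD. The 22 groups of fewer than 3 probes ranged from -0.18 to 0.67, with a median of 0.19.

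Member regions varied more between arrays of a diet than other regions did. Their median pooled SD within diets was 0.23, against 0.16 over all regions. Member regions also held fewer probes, with a median of 4 against 5, and their spots were dimmer, as given above. The part of either in the spread was not tested. The correlation between arrays over the 27 regions averaged 0.50 within ERD (all regions 0.70), 0.41 within BLD (0.74) and 0.32 within STD (0.44). Between ERD and STD arrays it averaged -0.03 over members and 0.49 over all regions. Between BLD and STD arrays the averages were 0.12 and 0.49, and between ERD and BLD arrays 0.42 and 0.67. Over members, STD arrays were thus the least like those of both other diets. The most variable region was chr13:23775906-23776528 (3 probes, pooled SD 0.57), where BLD replicate 2 reached 1.71 and BLD replicates 1 and 3 were 0.40 and -0.22. Between 11.1% and 33.3% of its spots were well above background, depending on the diet. The least variable was chr13:22072992-22073746 (8 probes, pooled SD 0.11), where 83.3% to 87.5% of spots were.

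**Figure D2:**
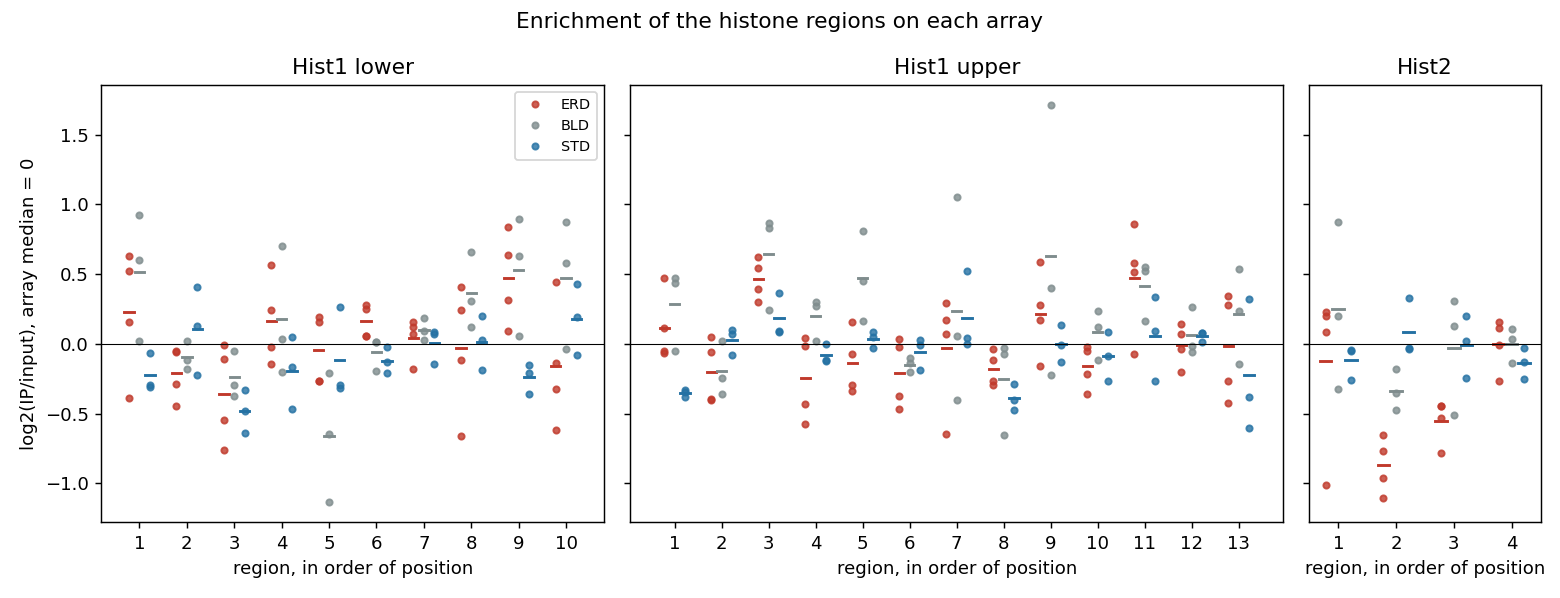
Enrichment of each of the 27 regions (x axis, in order of position within an interval) on each array (points) with the diet mean (bars), as log2(IP/input) with the array median at 0. The points of the 3 diets overlap in most regions, and the second Hist2 region has all 4 ERD arrays below the STD arrays.

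BLD replicate 2 and ERD replicate 2 stood apart over the members. Averaged over the 27 regions, BLD replicate 2 was at 0.40, while BLD replicates 1 and 3 were at 0.08 and -0.07. It was the highest of the 10 arrays in 14 regions. ERD replicate 2 was at -0.28, while ERD replicates 1, 3 and 4 were at 0.09, -0.01 and 0.03. It was the lowest array in 12 regions and below the array median in 21, a count that STD replicate 1 shared. STD replicates 1, 2 and 3 were at -0.15, -0.05 and -0.01. Over all 13835 regions, the means of BLD replicate 2 and ERD replicate 2 were both 0.05. The mean over members was -0.04 ± 0.16 for the 4 ERD arrays, 0.14 ± 0.24 for the 3 BLD arrays and -0.07 ± 0.08 for the 3 STD arrays (SD), and the ranges of the diets overlapped.

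By interval and in the same order, Hist1 lower stood at 0.03 ± 0.17, 0.11 ± 0.17 and -0.11 ± 0.06 (SD). Hist1 upper stood at 0.01 ± 0.18, 0.20 ± 0.29 and -0.05 ± 0.07. Hist2 stood at -0.39 ± 0.16, -0.03 ± 0.27 and -0.04 ± 0.14. In Hist2 the 4 ERD arrays were at -0.38, -0.62, -0.31 and -0.25, the BLD arrays at -0.07, 0.26 and -0.27, and the STD arrays at -0.17, -0.08 and 0.12. The ERD arrays were all below the STD arrays there, and 1 BLD array lay within the ERD range. Hist2 rests on 4 regions and was the interval in which the loci were selected.

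The Hist2 value was carried by 2 of its 4 regions. The region chr3:96025351-96025559 (3 probes) had the lowest mean level of all 27. It stood at -0.96, -0.65, -1.11 and -0.77 in ERD, -0.47, -0.18 and -0.35 in BLD, and -0.04, -0.03 and 0.33 in STD. The 3 diets did not overlap and followed the order of the n-3:n-6 ratio. The difference ERD minus STD was -0.96 (SE 0.13), and the slope was -0.18 per unit of log2(n-3:n-6), both given as a description. BLD minus STD was -0.42 (SE 0.14, limma adjusted p = 0.44) and ERD minus BLD -0.54 (SE 0.13, adjusted p = 0.42), and neither passed the test. On the slide that held both diets, BLD replicate 3 minus STD replicate 1 was -0.31, with 1 array for each diet. Over the 27 member regions the same difference ran from -0.47 to 0.51. With normexp background correction, which used an offset of 50, the difference ERD minus STD was -0.20 in place of -0.96. The parts of the correction and of the offset were not tested apart, here or in the other normexp values. With regions formed at a 1000 bp gap, which joined this region to its neighbour, the difference was -0.37. Without any 1 array it ran from -1.03 to -0.84.

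The 3 probes of this region differed in brightness. The probe at 96025351 was well above background on all 10 arrays and stood at -1.74, -1.04, -2.48 and -1.47 in ERD, -1.05, -1.05 and -0.81 in BLD, and -1.20, -0.60 and -0.11 in STD. Its diet ranges overlapped. The probe at 96025442, also well above background on all 10 arrays, stood at -0.40, -0.15, -0.90 and -0.79 in ERD, -0.21, -0.13 and -0.18 in BLD, and 0.09, 0.26 and 0.19 in STD. The STD arrays were above all others there, and ERD replicate 2 lay within the range of BLD. The probe at 96025501 was well above background on 2 arrays, and stood at -0.37 ± 0.44 on ERD arrays, 0.15 ± 0.44 on BLD arrays and 0.72 ± 0.40 on STD arrays (SD). The input signal of the first probe also differed between arrays, at percentiles 57.1 to 78.2 in ERD, 63.5 to 74.6 in BLD and 41.7 to 54.8 in STD. BLD thus lay within the range of ERD, and STD lay below both. That of the second fell to 42.5 and 42.4 on the slide of ERD replicates 3 and 4 and was between 69.3 and 77.8 on the 8 other arrays. The part of input signal in the difference was not tested.

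The neighbouring region chr3:96023767-96024856 (5 probes) gave no such order. It stood at 0.08, -1.01, 0.20 and 0.23 in ERD, 0.20, 0.88 and -0.32 in BLD, and -0.26, -0.05 and -0.04 in STD, and ERD minus STD was -0.01 (SE 0.31). Its pooled SD of 0.51 was at percentile 99.2 of all regions, and 10% of its spots in ERD were well above background. The region chr3:96073087-96073891 (5 probes) stood at -0.78, -0.53, -0.45 and -0.44 in ERD, 0.13, 0.31 and -0.51 in BLD, and -0.25, 0.02 and 0.20 in STD. The ERD arrays were below all STD arrays, by -0.54 on average (SE 0.18), with 20% to 33.3% of spots well above background. The region chr3:96081761-96082527 (6 probes), with 72.2% to 83.3% of spots well above background, stood at 0.00 ± 0.19 on ERD arrays, 0.00 ± 0.13 on BLD arrays and -0.14 ± 0.11 on STD arrays (SD), with ERD minus STD at 0.13 (SE 0.12). The 3 diets overlapped in this brighter region of Hist2.

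**Figure D3:**
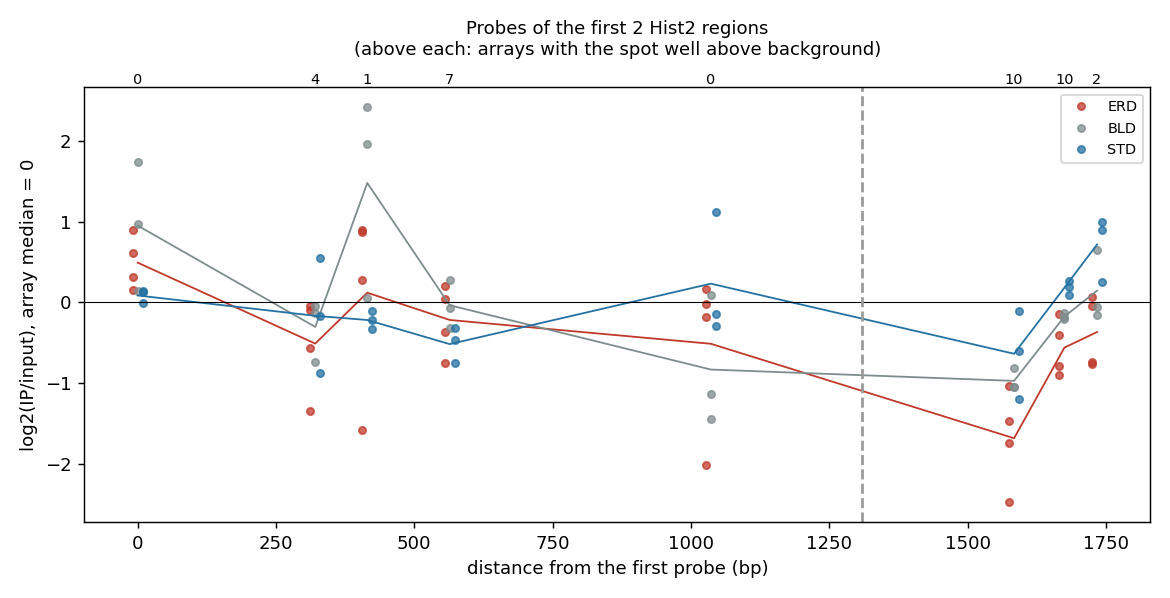
Enrichment of the 8 probes of the first 2 Hist2 regions on each array (points) with diet means (lines), against distance in bp from the first probe; the dashed line parts the regions, and numbers above give how many of 10 arrays had the spot well above background. STD lies above ERD on average in the 3 probes of the second region, and the order of the diets varies among the 5 probes of the first, of which none was well above background on all arrays.

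Across all member regions, no pairwise difference passed an adjusted p of 0.05, as was so for the whole array, where 0 of 13835 regions (0%) passed in each of the 3 contrasts. With quantile normalization, array weights or probe medians, 1 member, chr3:96025351-96025559, passed in ERD minus STD, as did 10, 8 and 1 of all regions. In ERD minus STD, 3 members were higher and 2 lower at an unadjusted p under 0.05, against 7.68% and 8.02% of all regions, and both lower ones were the Hist2 regions above. In the slope over the diets 3 members had a positive and 3 a negative slope at that level, against 7.09% and 7.94%, and 1 passed the adjusted threshold, the Hist2 region by which the loci were selected, as did 0.0434% of all regions. That call held in 7 of 23 alternatives and was lost in 16. The 7 include settings that could hardly alter it, such as the deposited value table of nearly the same ratios. Another was the removal of saturated spots, of which the members had none. With slide as a random block the slope was -0.18 (limma adjusted p = 0.083), and 0 of all regions passed. These ERD and slope counts restate the selection. The median ERD minus STD difference was 0.04 over members, with 13 of 27 lower, and 0.00 over all regions.

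BLD minus STD and ERD minus BLD share arrays with the contrasts used in the selection, and the selected Hist2 region is 1 of the members counted as lower in each. In BLD minus STD, 5 members were higher and 2 lower at an unadjusted p under 0.05, against 7.31% and 3.89% of all regions. The median difference was 0.24 over members and 0.03 over all regions, and 6 of 27 members were lower in BLD (all regions 43.3%). In ERD minus BLD, 1 member was higher and 5 lower, against 3.48% and 6.71%. The median was -0.17 over members and -0.03 over all regions, and 23 of 27 members were lower in ERD (all regions 56.4%). Both contrasts share the BLD arrays. None of the members passed the adjusted test, and the values rested on BLD replicate 2. The mean of BLD minus STD over members was 0.20 with all arrays and 0.07 without it, and that of ERD minus BLD was -0.18 and -0.05. Without BLD replicate 2, 3 members passed the unadjusted p in BLD minus STD in place of 7. The share of all regions fell as well, from 11.2% to 5.43%, and it was 4.44% without BLD replicate 1.

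The mean difference of BLD and STD over the members also changed sign between signal treatments, and the cause was not tested. It was -0.04 after loess within each array, which removes the trend of the ratio with brightness over its whole range, and -0.15 after normexp background correction. It was -0.07 over the 3 regions left when only spots well above background on every array were used, and 0.06 with all spots of those 3 regions, a comparison added after the data were seen. The mean of ERD minus BLD was 0.03 after loess, and over those 3 regions 0.07 with the filter and 0.03 with all spots. ERD minus STD was 0.03 with the processed signals and -0.15 after normexp.

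**Figure D4:**
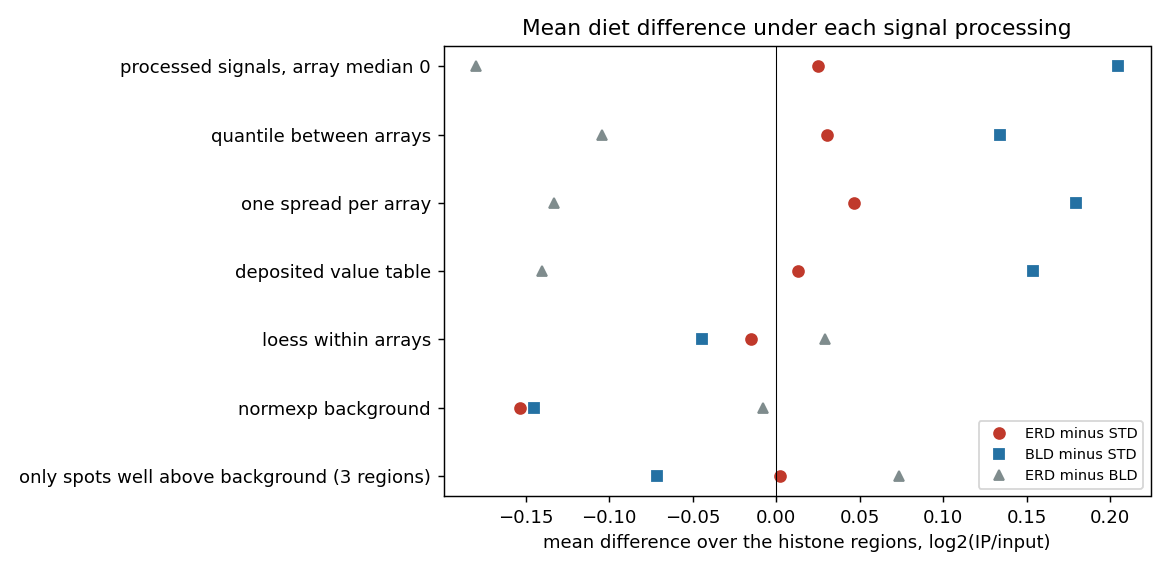
Mean difference over the histone regions for the 3 pairs of diets (symbols) under each signal processing (rows), in log2(IP/input). BLD minus STD is 0.20 with the processed signals and lies below 0 with loess (-0.04), normexp (-0.15) and only spots well above background (-0.07, over 3 regions).

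Single regions of Hist1 with the lowest p in each contrast were as follows. At chr13:22132818-22133405 (3 probes) the level was 0.84, 0.09, 0.32 and 0.64 in ERD, 0.90, 0.63 and 0.06 in BLD, and -0.36, -0.21 and -0.15 in STD. All STD arrays were below all others. BLD minus STD was 0.77 (SE 0.22, adjusted p = 0.44) and ERD minus STD 0.71 (SE 0.20). The share of spots well above background was 16.7% in ERD and 22.2% in BLD but 66.7% in STD, and the differences were 0.13 and 0.17 with normexp correction. Mean input stood at percentiles 26.4 to 32.6 on the STD arrays and at 23.9 on BLD replicate 3, which shared a slide with STD replicate 1. On all other arrays it was between 3.5 and 9.1. The part of slide and input signal in these differences was not tested. At chr13:23622881-23623802 (5 probes) the STD arrays lay close together at -0.33, -0.38 and -0.34, below 0.47, 0.11, -0.07 and -0.05 in ERD and 0.48, 0.44 and -0.05 in BLD. BLD minus STD was 0.64 (SE 0.16, adjusted p = 0.44). It became -0.29 with normexp correction. In STD 13.3% of its spots were well above background. At chr13:21808015-21808287 (3 probes), BLD minus STD was 0.74 (SE 0.26, adjusted p = 0.44) and became -0.40 with normexp correction, with 11.1% to 22.2% of spots well above background.

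The opposite sign was seen at chr13:22036987-22037250 (3 probes). It stood at 0.15, -0.27, 0.20 and -0.26 in ERD, -1.14, -0.65 and -0.21 in BLD, and 0.27, -0.29 and -0.31 in STD. BLD minus STD was -0.55 (SE 0.23, adjusted p = 0.44) and ERD minus BLD 0.62 (SE 0.22, adjusted p = 0.45). BLD replicate 3 lay within the range of the other diets. Among ERD minus BLD differences, chr13:23666064-23666324 (3 probes) was lowest in p after the Hist2 region. It stood at 0.16, -0.34, -0.30 and -0.07 in ERD, 0.45, 0.81 and 0.16 in BLD, and 0.05, 0.08 and -0.03 in STD. ERD minus BLD was -0.61 (SE 0.16, adjusted p = 0.42), and 0.08 with normexp correction. Mean input there was at percentiles 9.59 and 9.93 on BLD replicates 1 and 2 and at 32.2 on BLD replicate 3, on the slide shared with STD. At chr13:23662972-23663243 (3 probes) ERD minus BLD was -0.44 (SE 0.15, adjusted p = 0.45).

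**Figure D5:**
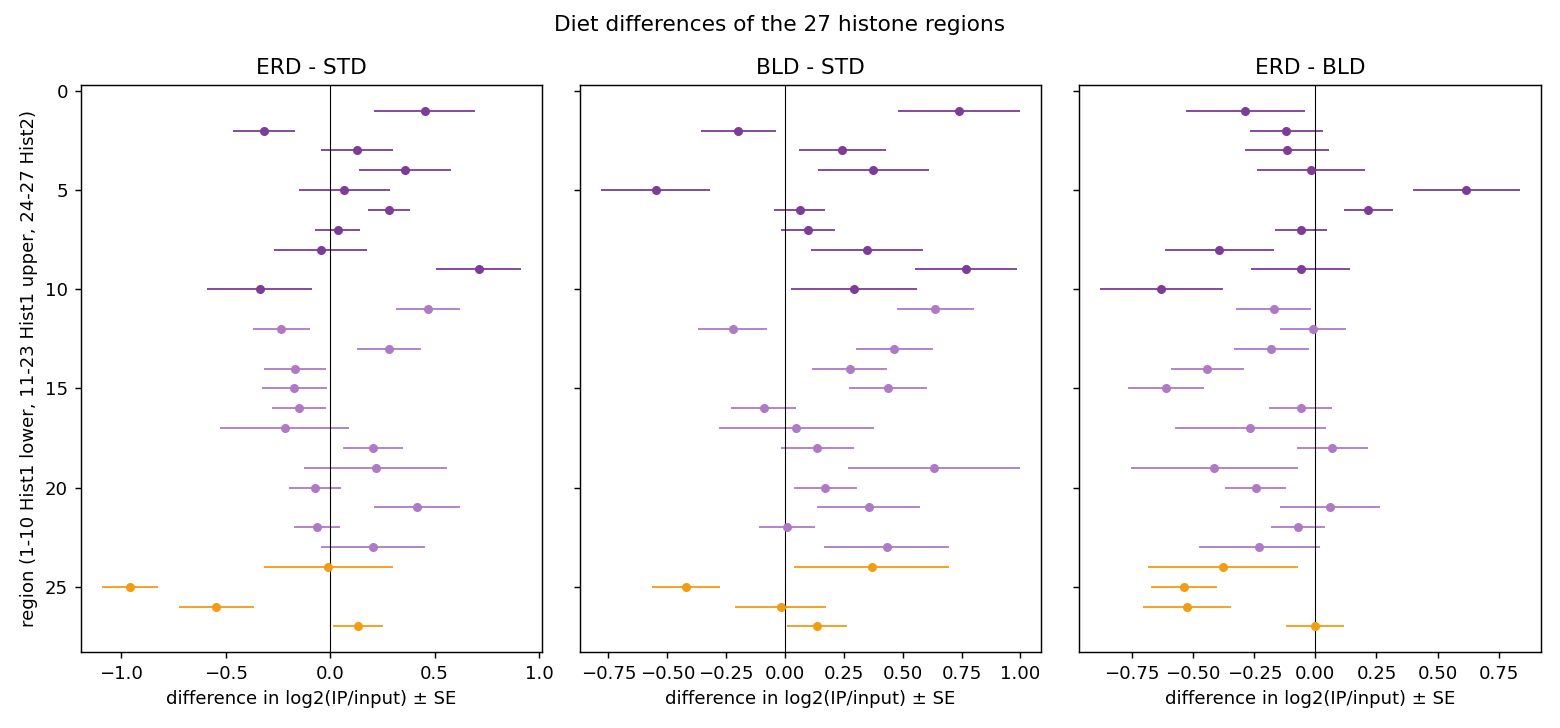
Difference between diets for each of the 27 regions (rows, in order of position) in log2(IP/input), with bars of 1 SE from limma; colours mark the 3 intervals. In ERD minus STD the second Hist2 region (row 25) is farthest from 0, at -0.96, and in BLD minus STD most points lie right of 0.

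In 5 regions over 75% of spots were well above background, and their ERD minus STD differences ran from -0.15 to 0.28, BLD minus STD from -0.09 to 0.43 and ERD minus BLD from -0.23 to 0.22. The regions at chr3:96025351 and chr13:22036987, with larger differences, came next at 73.3% and 70%. The 2 longest runs of bright probes in Hist1 lower were chr13:22072992-22073746 (8 probes) and chr13:22097663-22099089 (9 probes), which held 5 probes each that were well above background on all arrays. The first stood at 0.25, 0.28, 0.06 and 0.06 in ERD, -0.20, 0.01 and 0.01 in BLD, and -0.02, -0.21 and -0.13 in STD. The ERD arrays were above all others, ERD minus BLD was 0.22 (SE 0.10, adjusted p = 0.50), and ERD minus STD was 0.28 (SE 0.10). The latter kept its size under the other signal treatments, with 0.22 after normexp, 0.29 after loess and 0.25 with only spots well above background. The 2 ERD slides differed in this region, at 0.25 and 0.28 on one and 0.06 on both arrays of the other. The second region stood at 0.04 ± 0.15 on ERD arrays, 0.10 ± 0.08 on BLD arrays and 0.01 ± 0.13 on STD arrays (SD). In Hist1 upper, chr13:23852673-23854295 (8 probes, 54.2% to 65.6% of spots well above background) stood at 0.00 ± 0.15, 0.07 ± 0.17 and 0.06 ± 0.04, with every pairwise difference between -0.07 and 0.01. At chr13:23855470-23855861 (5 probes) 80% to 86.7% of spots were well above background, the pooled SD was 0.40 and BLD minus STD was 0.43 (SE 0.27, adjusted p = 0.52). The arrays stood there at 0.28, -0.43, -0.26 and 0.34 in ERD, 0.24, 0.54 and -0.14 in BLD, and -0.60, 0.32 and -0.38 in STD, so that each diet had arrays on both sides of 0.

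The remaining named regions were chr13:21813659-21813972, chr13:22142823-22143388, chr13:23627035-23627772, chr13:23673380-23673882 and chr13:23842874-23843441. Their mean levels were -0.07, 0.17, -0.12, -0.14 and 0.31. Their BLD minus STD differences were -0.20, 0.29, -0.22, -0.09 and 0.36, none of which passed the adjusted test. At chr13:22142823-22143388 ERD minus BLD was -0.63 (SE 0.25, adjusted p = 0.47). The other member regions are covered by the counts and ranges above.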

How the data were processed

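MeDIP and input DNA of 10 hemibrain samples were measured on 2-colour arrays with probes of 45 to 60 bases. The deposited intensities are Agilent processed signals (Feature Extraction 10.7.3.1 per the file headers, 9.0 per the submitters' processing notes), background-subtracted and dye-normalized; positions are mm9 per the file headers. The deposited series value table holds log10 ratios that matched those of the scanner files within 0.00498, with array medians from -0.0177 to 0.000978. Outlier flags and positions are other deposited columns, and the upstream DNA steps are those of the labels.

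From these, log2(Cy5/Cy3) was computed per spot, outlier-flagged spots were dropped, each array was centred on its median, and probes were averaged into regions (starts at most 500 bp apart, at least 3 probes). limma 3.58.1 (R 4.3.3) was fitted over all 13835 regions and 10 arrays, with Benjamini-Hochberg adjustment over all regions and the diets sharing 1 estimate of the spread. The slope used log2 of the diet ratio. The alternative with normexp background correction used an offset of 50. The code was tested on simulated data. The number of arrays limits the precision.

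The members and lists were chosen with earlier results of these data known. Named regions were, per interval, the 3 highest and 3 lowest levels, per contrast the 3 lowest p in each direction, the extremes of spread and the head of the slope. Matching of probes to genes, the planned list of histone supply genes, and the adjustments for probe base composition and near-identical copies were not made, since no probe sequence and no mm9 annotation was used here.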

Additional observations from a re-analysis of the deposited data

Results flagged for a closer look

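In the Hist2 region chr3:96023767-96024856, ERD replicate 2 stood at -1.01, while the other ERD arrays were between 0.08 and 0.23. Its gap to the nearest other array made up 0.88 of the range, above the critical value for 4 samples. Of 24 sets of ERD values examined (20 named regions and 4 means), this was the 1 that passed, and chance alone passes about 1 in 20. BLD and STD, with 3 arrays each, were not examined. On ERD arrays, 10% of its spots exceeded background clearly.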

How the results depend on the processing

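Dim signal set the limit: 3 of 27 regions were left with only spots well above background on every array, and there the Hist1 upper level was -0.16 (1 region). No other alternative moved an interval's level beyond its spread. The mean difference over members, with the processed signals 0.20 for BLD minus STD, became -0.15 (normexp), -0.044 (loess) and -0.071 (only spots well above background); ERD minus BLD, -0.18, became 0.029 (loess), 0.074 (well above) and 0.030 (all spots of the same 3 regions, added after seeing the data); ERD minus STD, 0.03, became -0.15 (normexp). The causes were not tested. Members at an unadjusted p under 0.05 in BLD minus STD were 7. They were 0 with normexp, 1 with spots well above background and 11 with array weights. With probe medians they were 4, and with at least 1 probe a region 14 of 49. The shares of all regions under the same settings were 11.2%, 3.59%, 11.2%, 18.7%, 9.92% and 10.9% in this order. In ERD minus BLD 6 members passed, and 0 with normexp and 1 with spots well above background (all regions 10.2%, 0.484% and 11.1%). In ERD minus STD 5 members passed, and 10 with normexp (1 higher, 9 lower), 9 with quantile normalization and 2 with spots well above background. With array weights 8 passed, and with at least 1 probe a region 10 of 49. The shares of all regions were 15.7%, 8.72%, 14.6%, 17.9%, 18.5% and 15.4% in this order. In the slope 6 members passed, and 0 with spots well above background (all regions 15.0% and 17.0%). With 1 array left out, the counts of members ran from 3 (without BLD replicate 2) to 8 in BLD minus STD. They ran from 3 (without BLD replicate 1) to 11 (without BLD replicate 3) in ERD minus BLD. In ERD minus STD and in the slope they ran from 4 to 7. Without BLD replicates 1, 2 and 3, the shares of all regions were 4.44%, 5.43% and 18.7% in BLD minus STD. In ERD minus BLD the shares were 6.52%, 6.74% and 11.8%. With any 1 array left out, the share of all regions ran from 8.62% to 16.2% in ERD minus STD. In the slope it ran from 8.46% to 17.0%. Signs reversed at chr13:21808015 (BLD minus STD, -0.40), chr13:23622881 (BLD minus STD, -0.29; ERD minus STD, -0.35), chr13:23662972 (ERD minus BLD, 0.0013) and chr13:23666064 (ERD minus BLD, 0.076), all with normexp. At chr13:23714277 ERD minus BLD, 0.07, was -0.029 with array weights and ran from -0.13 (without BLD replicate 1) to 0.18 (without BLD replicate 2). At chr3:96025351 BLD minus STD was 0.072 with a 1000 bp gap. The adjusted slope call of that region held in 7 of 23 alternatives and was lost in 16, with its direction kept. It was lost on leaving out any 1 array except BLD replicate 1. The 7 include the deposited value table and the removal of saturated spots, which could hardly alter it. Adjustments for probe base composition and near-identical copies were not run. No paired analysis was possible because the replicate numbers only follow the order of the samples and no label pairs samples across diets.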
